A study of Mus musculus with 6 samples.

Results

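The genes described here are the ligands and receptors of the classical axon guidance systems: semaphorins with plexins and neuropilins, ephrins with Eph receptors, netrins with Unc5 receptors, and Slits with Robo receptors. These members were taken by a rule on gene symbols, which gave 68 of the 55286 symbols in the count table, 35 ligands and 33 receptors. Of these, 60 had enough counts to be tested among 17400 genes. The other 8 were near 0 throughout: Efnb3, Epha5, Epha8, Epha10, Robo3, Robo4 and Unc5d had at most 20 counts in any library, and Epha6 had none.

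The study measured RNA in 2 libraries of mouse transdifferentiated cells, titled as direct reprogramming, in 2 of muscle and in 2 of mouse embryonic fibroblasts (MEF), by poly(A)-selected RNA sequencing. The labels name neither the conversion factor, the time after it and the mouse strain nor the age and source of the muscle, and do not say whether replicates were separate cultures or animals, so p-values measure the spread between these libraries, which may be technical. Headers of the count columns begin with STauMEF for MEF, SEndomuscle for muscle and SiMuscle for transdifferentiated cells, and the sample titles do not explain these names. Values are counts per 1000000 counts of tested genes (CPM), and a gene was called where the adjusted p was under 0.05.

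Axon guidance molecules are surface or secreted cues that make a growing axon or a migrating cell turn, stop or advance. Semaphorins act through plexins, which switch off small GTPases of the Ras and Rap kind, and the secreted class 3 members mostly need a neuropilin as co-receptor. Ephrins are bound to the membrane and signal to Eph receptor tyrosine kinases on the neighbouring cell, and back into their own cell. Netrins attract through Dcc and neogenin and repel through Unc5 receptors, and Slits repel through Robos. In limb and muscle, the same molecules steer motor axons, vessels and migrating muscle precursors.

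Total counts per library lay between 16817033 and 24584951. The labels were checked against marker genes. Summed over 9 muscle markers, the level was 32317 to 48094 CPM in transdifferentiated cells, 46890 to 51069 CPM in muscle and 244 to 386 CPM in MEF. Acta1 was the largest part of this sum, at 18870 and 32270 CPM in transdifferentiated cells, 29180 and 23190 CPM in muscle, and 364 and 217 CPM in MEF. Muscle, whose source the labels do not name, also had Myh3 at 6423 and 7301 CPM, Myod1 at 724 and 622 CPM and Myog at 1102 and 992 CPM. The sum of 7 fibroblast markers was 5532 to 9358 CPM in transdifferentiated cells, 4146 to 8438 CPM in muscle and 10585 to 20028 CPM in MEF, and Col1a1 made up at least 84.8% of it in every library. The other 6 fibroblast markers summed to 330.4 and 339.0 CPM in transdifferentiated cells, 210.8 and 221.1 CPM in muscle, and 1909 and 1612 CPM in MEF. All 6 were called lower in muscle than in MEF. In transdifferentiated cells over MEF, Thy1, Ly6a, Pdpn and Twist2 were called lower, and Pdgfra, Dpt and Col1a1 were not called. Dpt was above MEF there, at 84.7 and 56.0 CPM against 35.8 and 51.1 CPM. The 8 endothelial markers summed to at most 9.83 CPM in transdifferentiated cells, at most 2.13 CPM in muscle, where Tie1 and Emcn had no count, and 20.8 to 22.1 CPM in MEF. The 6 neuronal markers summed to 2.42 to 4.83 CPM in transdifferentiated cells, 1.83 to 2.68 CPM in muscle and 5.07 to 8.21 CPM in MEF. Stmn2 made up most of each sum, and Rbfox3 had no count. In bulk RNA, fewer cells of a type and less RNA per cell cannot be told apart.

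Against MEF, 10 members were higher and 14 lower in transdifferentiated cells, which is 40.0% of the 60 tested beside 27.3% of all tested genes (15.9% higher, 11.3% lower). In muscle against MEF, 13 were higher and 20 lower, or 55.0% beside a background of 35.6% (17.3% higher, 18.3% lower). Transdifferentiated cells differed from muscle in fewer members, 8 higher and 5 lower, or 21.7% beside 10.0% (7.58% higher, 2.46% lower). These last counts depended on single libraries: 5 members were higher without muscle replicate 1 and 4 without muscle replicate 2, and 2, 2 and 3 were lower without transdifferentiated replicate 1, muscle replicate 1 and muscle replicate 2. The median log2 fold change of the tested members was -0.12 for transdifferentiated cells over MEF (0.07 over all genes), -0.56 for muscle over MEF (0.00) and 0.17 for transdifferentiated cells over muscle (0.03). Tests were edgeR's quasi-likelihood test with Benjamini-Hochberg adjustment over all 17400 genes. The comparisons share libraries, so their calls are not independent of each other.

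By role, 7 of 34 ligands rose and 7 fell in transdifferentiated cells relative to MEF, and 3 of 26 receptors rose and 7 fell. Called shares were 41.2% of ligands and 38.5% of receptors, beside 27.3% of all tested genes (15.9% higher, 11.3% lower). In muscle over MEF, 9 ligands rose and 8 fell, and 4 receptors rose and 12 fell. Called shares in that comparison were 50% of ligands and 61.5% of receptors, beside 35.6% of all tested genes (17.3% higher, 18.3% lower). Class 3 semaphorins had 2 higher and 2 lower of 7 in transdifferentiated cells over MEF. Of 13 membrane semaphorins 3 rose, of 11 plexins and neuropilins 2 rose and 2 fell, of 7 ephrins 3 fell, and of 10 Eph receptors 1 rose and 3 fell. Of 4 netrins 1 rose, of 3 tested Unc5 receptors 2 fell, of 3 Slits 1 rose and 2 fell, and Robo1 and Robo2 were not called.

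**Figure D1:**
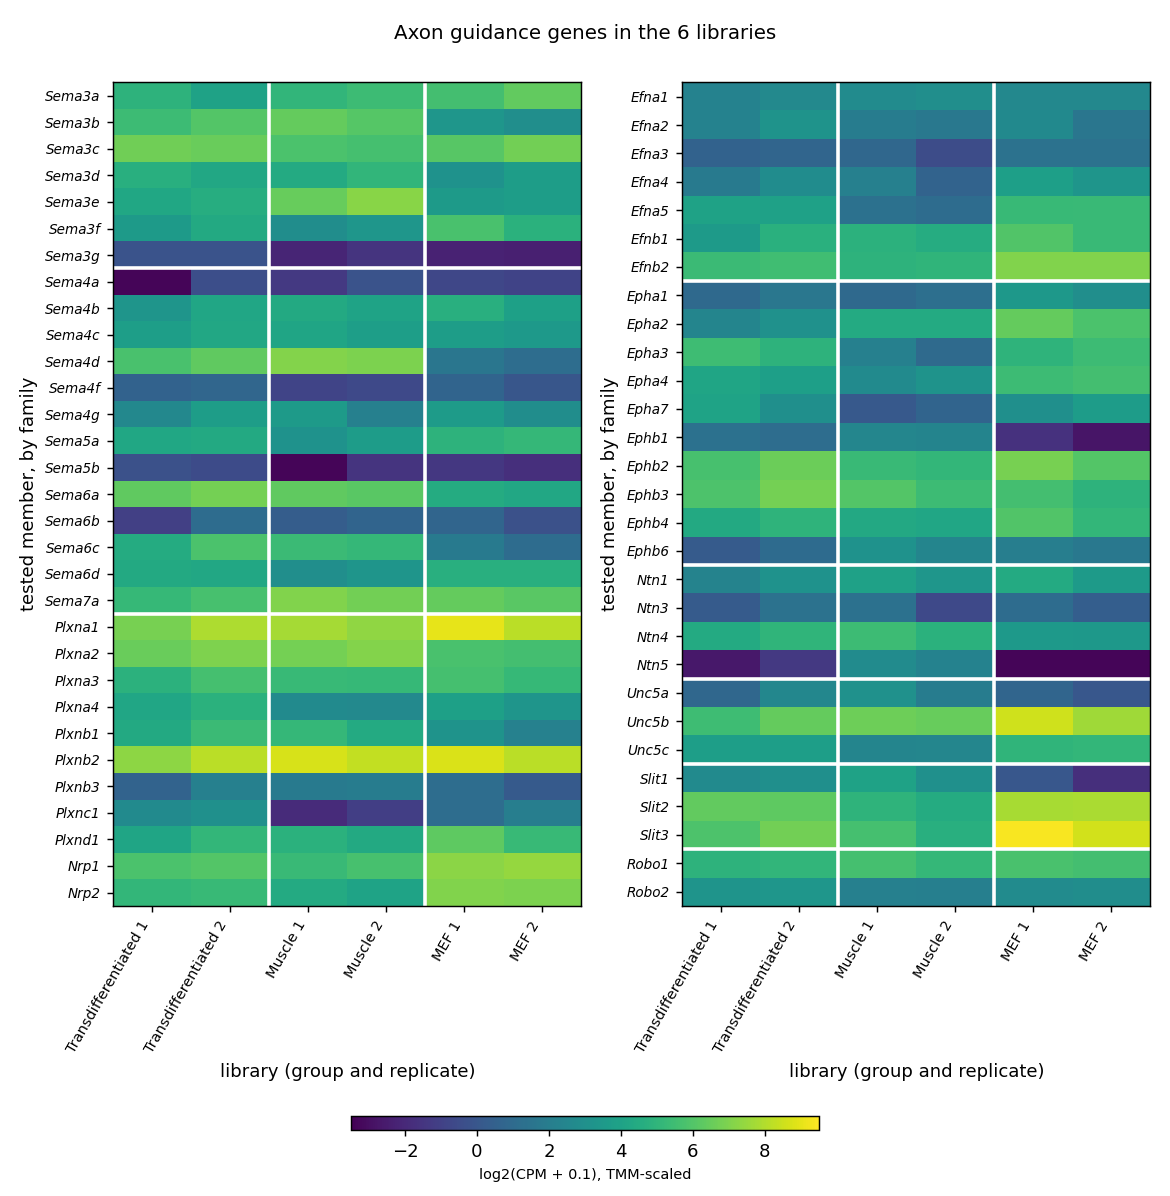
Level of each of the 60 tested members (rows, by family) in each library (columns: transdifferentiated 1 and 2, muscle 1 and 2, MEF 1 and 2), as log2(CPM + 0.1), with low levels dark and high levels yellow. Sema4d, Sema6c, Slit1 and Ephb1 are darkest in the MEF columns, and Efna5, Epha3, Epha7 and Plxnc1 are darkest in the muscle columns.

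Among semaphorin ligands, the largest rise was of Sema4d (chr13:51685529-51793747, minus strand, mm10), a transmembrane semaphorin known as CD100 that binds plexin-B1. It had 54.4 and 80.6 CPM in transdifferentiated cells, 138 and 121 CPM in muscle, and 2.92 and 2.14 CPM in MEF. The groups did not overlap, and MEF were far below the others. It was 26.7-fold higher in transdifferentiated cells than in MEF (log2 fold change 4.74 ± 0.34 SE, edgeR adjusted p = 2.19e-05) and 51.2-fold higher in muscle (5.68 ± 0.36, edgeR adjusted p = 7.61e-06). Transdifferentiated cells stood at -0.94 ± 0.29 relative to muscle, which was not called (edgeR adjusted p = 0.0809), although the difference passed at 0.0375 without the low-count filter, at 0.0389 with DESeq2, at 0.0469 or 0.0488 without MEF replicate 1 or 2, and at 0.00411 with the GC correction described below.

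Sema6c (chr3:95160457-95174024, plus strand), a transmembrane class 6 semaphorin, had 22.9 and 55.5 CPM in transdifferentiated cells, 40.3 and 35.5 CPM in muscle, and 3.47 and 2.04 CPM in MEF. The transdifferentiated libraries lay on either side of the muscle ones, and all 4 were far above MEF. The rise over MEF was 3.83 ± 0.49 in transdifferentiated cells (edgeR adjusted p = 0.000597; 3.03 without transdifferentiated replicate 2) and 3.79 ± 0.49 in muscle (edgeR adjusted p = 0.000442).

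The start regions of the members that rose were read from RefSeq (GRCm38.p6, 300 bases from 250 before to 50 after a start) and searched for CAGCTG, an E-box that muscle bHLH factors bind and that reads the same on both strands. The 3 windows below are shown because they are the ones that hold it among 10 windows, which belong to 7 of the members higher in transdifferentiated cells over MEF. Capitals mark the E-box, at first base -90 in Sema4d (chr13:51756634-51756933, minus strand), -141 in Sema6c (chr3:95164089-95164388, plus strand) and -210 in Sema3g (chr14:31217623-31217922, plus strand).
Sema4d: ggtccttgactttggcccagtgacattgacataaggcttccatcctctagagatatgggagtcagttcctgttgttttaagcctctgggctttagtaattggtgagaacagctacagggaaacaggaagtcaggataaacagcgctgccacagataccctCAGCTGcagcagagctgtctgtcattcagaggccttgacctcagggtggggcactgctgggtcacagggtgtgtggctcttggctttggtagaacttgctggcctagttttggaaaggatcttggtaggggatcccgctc
Sema6c: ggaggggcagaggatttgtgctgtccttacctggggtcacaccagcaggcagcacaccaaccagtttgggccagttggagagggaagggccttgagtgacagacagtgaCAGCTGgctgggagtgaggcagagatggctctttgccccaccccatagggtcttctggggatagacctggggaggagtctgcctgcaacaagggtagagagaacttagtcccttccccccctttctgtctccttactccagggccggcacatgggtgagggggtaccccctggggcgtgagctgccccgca
Sema3g: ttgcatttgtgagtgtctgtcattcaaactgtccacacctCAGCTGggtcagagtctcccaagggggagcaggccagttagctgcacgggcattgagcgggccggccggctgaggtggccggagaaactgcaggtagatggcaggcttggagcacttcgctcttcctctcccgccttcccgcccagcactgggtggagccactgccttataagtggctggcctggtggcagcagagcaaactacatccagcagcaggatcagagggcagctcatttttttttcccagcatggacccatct

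Sema4d and Sema6c have other annotated starts whose windows lack these letters. CAGCTG was in 16.3% of all 32851 windows and in 12 of the 75 windows of members. It was in none of the 13 windows of members lower in transdifferentiated cells over MEF. It was in 2 of the 5 windows of members lower in transdifferentiated cells than in muscle, those of Ntn5 and Sema7a. A motif of MEF2 factors, also searched, was in 0 of the 10 windows above and in 3.19% of all windows. Sema3g was scarce, and its call was lost in 9 of 11 alternative settings. A match of letters is a description and not a binding site.

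The other membrane semaphorin that rose, Sema6a on chromosome 18, which signals through plexin-A2 and plexin-A4, had 79.0 and 110 CPM in transdifferentiated cells, 79.4 and 71.9 CPM in muscle, and 22.1 and 19.9 CPM in MEF. It was 4.50-fold higher in transdifferentiated cells (2.17 ± 0.27, edgeR adjusted p = 0.000546) and 3.60-fold higher in muscle (1.85 ± 0.27, edgeR adjusted p = 0.000874).

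Among the secreted class 3 ligands, Sema3b and Sema3f lie close together on chromosome 9, and both bind neuropilin-2. Sema3b (chr9:107597674-107609229, minus strand) had 42.3 and 64.9 CPM in transdifferentiated cells, 87.1 and 67.9 CPM in muscle, and 9.86 and 7.38 CPM in MEF. It rose by 2.64 ± 0.33 in transdifferentiated cells (edgeR adjusted p = 0.000535) and by 3.17 ± 0.33 in muscle (edgeR adjusted p = 0.000145). Its neighbour Sema3f (chr9:107681500-107710475, minus strand) went the other way, with 11.97 and 20.9 CPM in transdifferentiated cells, 7.34 and 9.92 CPM in muscle, and 54.1 and 27.5 CPM in MEF. The groups did not overlap for either gene. Sema3f fell by 2.24 ± 0.43 in muscle (edgeR adjusted p = 0.00357), while its fall in transdifferentiated cells (-1.31 ± 0.41, edgeR adjusted p = 0.0438) was not called without replicate 1 of these cells (0.174), without MEF replicate 1 (0.251) or without muscle replicate 1 or 2 (0.062 and 0.0614), nor with the 2 compared groups alone (0.0719).

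Sema3a, Sema3c, Sema3d and Sema3e lie on chromosome 5 and behaved differently from each other. Sema3a, the founding secreted repellent, had 30.2 and 15.7 CPM in transdifferentiated cells, 32.8 and 43.0 CPM in muscle, and 48.7 and 81.6 CPM in MEF. It fell by 1.51 ± 0.39 in transdifferentiated cells (edgeR adjusted p = 0.0204), a call lost without transdifferentiated replicate 2 (0.0698) or MEF replicate 2 (0.0593), and was at -0.78 in muscle (edgeR adjusted p = 0.147). Sema3e (chr5:14025276-14256689, plus strand), which binds plexin-D1 without a neuropilin, had 19.2 and 24.4 CPM in transdifferentiated cells, 89.0 and 145 CPM in muscle, and 12.1 and 13.5 CPM in MEF. Muscle stood apart, 9.17-fold above MEF (3.20 ± 0.33, edgeR adjusted p = 0.000127), and transdifferentiated cells were 5.37-fold lower than muscle (-2.42 ± 0.32, edgeR adjusted p = 0.00191). Relative to MEF, Sema3e stood at 0.77 ± 0.31 in transdifferentiated cells, which was not called (edgeR adjusted p = 0.0988).

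Sema3d had 26.4 and 19.3 CPM in transdifferentiated cells, 21.9 and 33.4 CPM in muscle, and 8.54 and 13.3 CPM in MEF. Its rise was called in muscle (1.34 ± 0.35, edgeR adjusted p = 0.0171; 0.143 without muscle replicate 2 and 0.0761 without MEF replicate 1), and the value in transdifferentiated cells was 1.06 ± 0.35 (edgeR adjusted p = 0.0533). Sema3c, a cue of the cardiac outflow tract, had 102 and 91.9 CPM in transdifferentiated cells, 56.4 and 50.5 CPM in muscle, and 69.1 and 108 CPM in MEF, and was called in no comparison. Sema3g was scarce, with 14 and 16 counts in transdifferentiated cells, 3 and 4 in muscle, and 2 and 2 in MEF. Its rise over MEF (2.84 ± 0.84, edgeR adjusted p = 0.0346) was lost whichever library was left out, at adjusted p between 0.0749 and 0.188, and also without the low-count filter (0.0724) and with DESeq2 (0.103).

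Of the other membrane semaphorins, 3 were called in comparisons with muscle. Sema6d had 21.0 and 19.3 CPM in transdifferentiated cells, 7.51 and 9.62 CPM in muscle, and 25.8 and 26.0 CPM in MEF. Sema6d fell in muscle relative to MEF (-1.60 ± 0.28, edgeR adjusted p = 0.00244) and higher in transdifferentiated cells than in muscle (1.24 ± 0.28, edgeR adjusted p = 0.0246), and this second call was lost without either replicate of either group (0.0573 to 0.226). Sema5a, which carries thrombospondin repeats, had 19.0 and 20.8 CPM in transdifferentiated cells, 8.53 and 12.8 CPM in muscle, and 29.4 and 35.8 CPM in MEF, and fell in muscle over MEF (-1.62 ± 0.31, edgeR adjusted p = 0.00354). Sema7a, a lipid-anchored semaphorin that binds plexin-C1 and integrins, had 36.6 and 53.1 CPM in transdifferentiated cells, 129 and 106 CPM in muscle, and 85.6 and 71.7 CPM in MEF. It was lower in transdifferentiated cells than in muscle (-1.39 ± 0.28, edgeR adjusted p = 0.0151; not called without transdifferentiated replicate 1, at 0.0792, or muscle replicate 1 or 2, at 0.119 and 0.0618). Sema4a, Sema4b, Sema4c, Sema4f, Sema4g, Sema5b and Sema6b were called in no comparison.

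Among the receptors, plexin-B1 and plexin-A2 rose with their semaphorin ligands. Plxnb1 (chr9:109095389-109119917, plus strand), the receptor of Sema4d, had 20.9 and 41.3 CPM in transdifferentiated cells, 35.1 and 21.8 CPM in muscle, and 8.81 and 4.47 CPM in MEF. No MEF library reached the lowest of the other 4. It rose by 2.23 ± 0.47 in transdifferentiated cells (edgeR adjusted p = 0.00795; 1.63 without transdifferentiated replicate 2) and by 2.10 ± 0.46 in muscle (edgeR adjusted p = 0.00748; 0.0513 without muscle replicate 1). Plxna2 (chr1:194618218-194816869, plus strand), a receptor of Sema6a, had 93.1 and 126 CPM in transdifferentiated cells, 112 and 137 CPM in muscle, and 54.7 and 48.3 CPM in MEF. The rise of Plxna2 was 1.09 ± 0.26 in transdifferentiated cells (edgeR adjusted p = 0.0155; 0.0909 without transdifferentiated replicate 2 and 0.06 without MEF replicate 2) and 1.27 ± 0.27 in muscle (edgeR adjusted p = 0.00561; 0.0585 without muscle replicate 2).

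The neuropilins, co-receptors of class 3 semaphorins and of VEGF, both fell. Nrp1 (chr8:128358604-128503363, plus strand) had 55.5 and 64.5 CPM in transdifferentiated cells, 40.2 and 52.7 CPM in muscle, and 151 and 175 CPM in MEF. Nrp2 (chr1:62703285-62818695, plus strand) had 34.9 and 38.4 CPM in transdifferentiated cells, 22.1 and 16.4 CPM in muscle, and 129 and 121 CPM in MEF. In transdifferentiated cells Nrp1 fell by 1.44 ± 0.26 (edgeR adjusted p = 0.00365) and Nrp2 by 1.77 ± 0.26 (edgeR adjusted p = 0.0013), and in muscle by 1.81 ± 0.26 (0.000813) and 2.70 ± 0.27 (0.000101). Endothelial cells also express both neuropilins, and the endothelial marker sum given above was lower in the same groups. Of 6 tested endothelial markers, Tek and Esam were called lower in transdifferentiated cells over MEF, and 4 were not called. Among these, Pecam1 had 0.956 and 1.07 CPM in transdifferentiated cells and 0.331 and 0.291 CPM in MEF. In muscle over MEF, 5 were called lower. The part of endothelial cells in the neuropilin falls was not tested.

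Plxnc1 (chr10:94790866-94944835, minus strand), the Sema7a receptor, had 6.52 and 8.04 CPM in transdifferentiated cells, 0.171 and 0.365 CPM in muscle, and 2.09 and 4.08 CPM in MEF. It fell in muscle relative to MEF (-3.56 ± 0.59, edgeR adjusted p = 0.00185) and was 27.7-fold higher in transdifferentiated cells than in muscle (4.79 ± 0.59, edgeR adjusted p = 0.00146). Over MEF the value in transdifferentiated cells was 1.23 ± 0.46 (edgeR adjusted p = 0.0814; called at 0.0429 without MEF replicate 2). Macrophages express Plxnc1, and the 7 macrophage markers summed to 364 to 378 CPM in transdifferentiated cells, 1.83 to 3.63 CPM in muscle, where Adgre1 and Ptprc had no count, and 32.7 to 42.4 CPM in MEF. All 7 were called higher in transdifferentiated cells over muscle and over MEF, and lower in muscle over MEF. Their part in the Plxnc1 result was not tested.

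Plxna4 had 18.2 and 27.5 CPM in transdifferentiated cells, 6.52 and 6.09 CPM in muscle, and 14.8 and 9.71 CPM in MEF. Its level was higher in transdifferentiated cells than in muscle (1.86 ± 0.35, edgeR adjusted p = 0.0115; 0.0842 without muscle replicate 1 and 0.108 without muscle replicate 2). Plxna1, Plxna3, Plxnb2, Plxnb3 and Plxnd1 were called in no comparison. The most abundant of these, Plxnb2, had 159 and 282 CPM in transdifferentiated cells, 419 and 318 CPM in muscle, and 441 and 287 CPM in MEF.

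Among the ephrins, Efna5 (chr17:62604184-62881317, minus strand), a lipid-anchored ligand of EphA receptors, had 15.9 and 15.5 CPM in transdifferentiated cells, 2.47 and 2.01 CPM in muscle, and 38.1 and 39.1 CPM in MEF. The 3 groups were fully apart, with transdifferentiated cells in between. It was 2.46-fold lower in transdifferentiated cells than in MEF (-1.30 ± 0.27, edgeR adjusted p = 0.00742), 17.1-fold lower in muscle (-4.09 ± 0.31, edgeR adjusted p = 1.84e-05) and 6.93-fold higher in transdifferentiated cells than in muscle (2.79 ± 0.30, edgeR adjusted p = 0.000661). Efnb2 (chr8:8617434-8661242, minus strand), a transmembrane ligand known as a marker of arterial endothelium, had 41.2 and 46.1 CPM in transdifferentiated cells, 29.7 and 31.7 CPM in muscle, and 132 and 130 CPM in MEF. It fell by 1.59 ± 0.24 in transdifferentiated cells (edgeR adjusted p = 0.00143) and by 2.10 ± 0.24 in muscle (edgeR adjusted p = 0.000227).

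Efnb1, an X-linked transmembrane ligand, had 11.8 and 26.9 CPM in transdifferentiated cells, 28.7 and 23.0 CPM in muscle, and 62.4 and 40.2 CPM in MEF. Its fall in transdifferentiated cells (-1.40 ± 0.41, edgeR adjusted p = 0.0345) was lost without transdifferentiated replicate 1 (0.132), without MEF replicate 1 (0.104), without either muscle replicate (0.0522 and 0.0517) and with the 2 compared groups alone (0.0628), and was -2.15 without transdifferentiated replicate 2. Efna4 had 3.49 and 7.02 CPM in transdifferentiated cells, 4.31 and 1.46 CPM in muscle, and 14.2 and 9.71 CPM in MEF. It fell in muscle (-2.03 ± 0.56, edgeR adjusted p = 0.0204; -3.03 without muscle replicate 1, and 0.119 as adjusted p without muscle replicate 2). Efna1, Efna2 and Efna3 were called in no comparison.

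The Eph receptors, the receptor tyrosine kinases of the ephrins, differed among themselves in which group stood apart. Epha2 (chr4:141301240-141329384, plus strand) had 5.28 and 8.47 CPM in transdifferentiated cells, 21.9 and 21.6 CPM in muscle, and 85.5 and 57.1 CPM in MEF. The order of the groups was complete, and transdifferentiated cells were lowest. Epha2 was 10.3-fold lower in transdifferentiated cells than in MEF (-3.37 ± 0.35, edgeR adjusted p = 0.000189) and 3.28-fold lower in muscle (-1.71 ± 0.33, edgeR adjusted p = 0.00362). The difference between transdifferentiated cells and muscle (-1.66 ± 0.33, edgeR adjusted p = 0.0149) was lost without transdifferentiated replicate 1 (0.063) or muscle replicate 1 or 2 (0.0744 and 0.0772).

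Epha3 and Epha7, both receptors of A-type ephrins, were lowest in muscle. Epha3 (chr16:63543534-63864175, minus strand) had 43.6 and 30.2 CPM in transdifferentiated cells, 4.44 and 1.89 CPM in muscle, and 31.2 and 42.0 CPM in MEF. Transdifferentiated cells overlapped MEF (0.01 ± 0.39, edgeR adjusted p = 0.988, with a sign that depended on the setting) and were 11.5-fold above muscle (3.52 ± 0.44, edgeR adjusted p = 0.00157; 4.28 without muscle replicate 1). Epha7 (chr4:28813131-28967499, plus strand) had 16.1 and 7.84 CPM in transdifferentiated cells, 0.981 and 1.52 CPM in muscle, and 7.66 and 12.9 CPM in MEF. It was 9.65-fold higher in transdifferentiated cells than in muscle (3.27 ± 0.51, edgeR adjusted p = 0.0047; 2.66 without transdifferentiated replicate 1), and the transdifferentiated and MEF libraries overlapped (0.22 ± 0.45, edgeR adjusted p = 0.762). In muscle over MEF, Epha3 fell by 3.51 ± 0.44 (edgeR adjusted p = 0.000397; -4.27 without muscle replicate 1) and Epha7 by 3.05 ± 0.51 (edgeR adjusted p = 0.00188).

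Epha4 (chr1:77367185-77515088, minus strand), which binds ephrins of both types, had 17.3 and 14.1 CPM in transdifferentiated cells, 6.40 and 9.07 CPM in muscle, and 42.5 and 48.6 CPM in MEF. It fell by 1.54 ± 0.30 in transdifferentiated cells (edgeR adjusted p = 0.005) and by 2.56 ± 0.31 in muscle (edgeR adjusted p = 0.000287). Epha1 had 1.80 and 3.05 CPM in transdifferentiated cells, 1.83 and 2.25 CPM in muscle, and 10.5 and 7.43 CPM in MEF. It was lower in transdifferentiated cells (-1.88 ± 0.42, edgeR adjusted p = 0.0109; 0.0609 without transdifferentiated replicate 1) and in muscle (-2.14 ± 0.43, edgeR adjusted p = 0.00465). Its exons share 236 bases with Zyx on the opposite strand, which had 199 and 410 CPM in transdifferentiated cells, 266 and 144 CPM in muscle, and 1617 and 727 CPM in MEF, and the strand setting of the counting is not stated, so the Epha1 values are uncertain.

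Ephb1 (chr9:101922128-102354693, minus strand) was the Eph receptor that rose, at low counts. It had 2.47 and 2.13 CPM in transdifferentiated cells, 5.42 and 4.99 CPM in muscle, and 0.22 and 0.0486 CPM in MEF. The rise was 4.08 ± 0.65 in transdifferentiated cells (edgeR adjusted p = 0.00193) and 5.25 ± 0.64 in muscle (edgeR adjusted p = 0.000311). Its size rests on the few MEF counts: without MEF replicate 1 or 2 it was 5.39 or 3.34 in transdifferentiated cells, and 6.57 or 4.52 in muscle.

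Ephb2 and Ephb4 fell in muscle, and Ephb4 is known as the receptor of Efnb2 on venous endothelium. Ephb2 had 53.1 and 94.2 CPM in transdifferentiated cells, 39.3 and 34.1 CPM in muscle, and 113 and 64.3 CPM in MEF (muscle over MEF -1.27 ± 0.37, edgeR adjusted p = 0.0254). Ephb4 had 21.0 and 31.3 CPM in transdifferentiated cells, 20.5 and 18.3 CPM in muscle, and 63.7 and 34.0 CPM in MEF (-1.33 ± 0.36, edgeR adjusted p = 0.0189). Each of these calls was lost without either muscle replicate (0.0913 and 0.15 for Ephb2, 0.0807 and 0.122 for Ephb4) or without MEF replicate 1 (0.125 for both). Ephb6, whose kinase domain is inactive, had 1.07 and 1.94 CPM in transdifferentiated cells, 8.66 and 5.30 CPM in muscle, and 4.08 and 3.11 CPM in MEF. It was lower in transdifferentiated cells than in muscle (-2.21 ± 0.47, edgeR adjusted p = 0.0189; 0.0832 without transdifferentiated replicate 1 and 0.138 without muscle replicate 1). Ephb3 was called in no comparison.

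**Figure D2:**
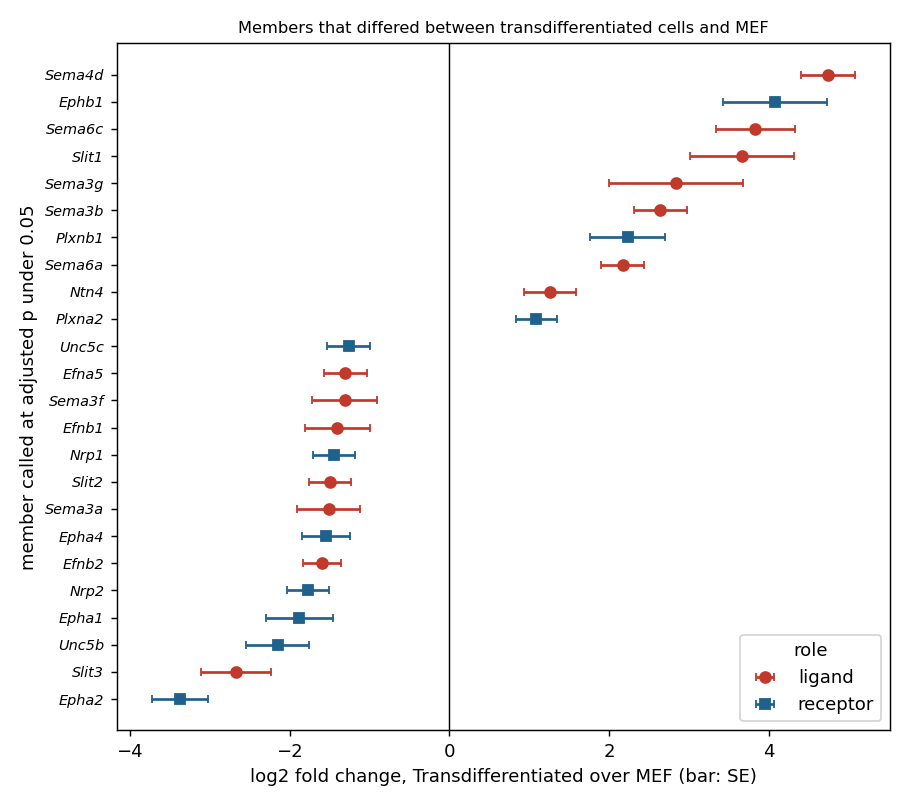
Log2 fold change of transdifferentiated cells over MEF (x axis) for the 24 members called in that comparison (y axis), with SE as bars. The 10 higher members run up to Sema4d at 4.74 and the 14 lower ones down to Epha2 at -3.37.

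Of the netrins, Ntn4 (chr10:93640681-93747207, plus strand), a basement membrane netrin, had 21.9 and 31.7 CPM in transdifferentiated cells, 41.9 and 27.7 CPM in muscle, and 11.6 and 10.7 CPM in MEF. It rose by 1.26 ± 0.32 in transdifferentiated cells (edgeR adjusted p = 0.0193; 0.101 without transdifferentiated replicate 2 and 0.0519 without MEF replicate 2) and by 1.64 ± 0.32 in muscle (edgeR adjusted p = 0.0044). Ntn5 (chr7:45684022-45694556, plus strand) was highest in muscle, with 0.0562 and 0.291 CPM in transdifferentiated cells, 6.74 and 4.69 CPM in muscle, and no count in MEF. Against the limit that a count of 0 allows, 3 counts per library, it was at least 36.7-fold higher in muscle, relative to MEF (edgeR adjusted p = 0.000449). It was lower in transdifferentiated cells than in muscle (-4.95 ± 0.72, edgeR adjusted p = 0.0047; -4.27 without transdifferentiated replicate 1 and -6.52 without replicate 2). Ntn5 exons share 519 bases with Sec1 on the opposite strand, which had at most 0.554 CPM in any library. Ntn1, the classical chemoattractant, and Ntn3 were called in no comparison.

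The Unc5 receptors mediate repulsion by netrins. Unc5b (chr10:60762593-60831581, minus strand) had 44.4 and 84.8 CPM in transdifferentiated cells, 99.8 and 87.8 CPM in muscle, and 374 and 201 CPM in MEF. It fell by 2.15 ± 0.40 in transdifferentiated cells (edgeR adjusted p = 0.00424) and by 1.61 ± 0.39 in muscle (edgeR adjusted p = 0.0114; 0.0546 and 0.0847 without muscle replicate 1 and 2). Unc5c (chr3:141465216-141834924, plus strand) had 13.8 and 13.8 CPM in transdifferentiated cells, 5.25 and 5.48 CPM in muscle, and 31.7 and 34.0 CPM in MEF, so that transdifferentiated cells lay between the other groups. It fell by 1.26 ± 0.27 in transdifferentiated cells (edgeR adjusted p = 0.00845) and by 2.62 ± 0.28 in muscle (edgeR adjusted p = 0.000154). The difference from muscle (1.36 ± 0.28, edgeR adjusted p = 0.0149) was lost without muscle replicate 1 or 2 (0.133 and 0.127). Unc5a had 1.69 and 5.57 CPM in transdifferentiated cells, 8.23 and 3.83 CPM in muscle, and 1.54 and 0.923 CPM in MEF. It rose in muscle (2.30 ± 0.66, edgeR adjusted p = 0.0245), with 1.64 and an adjusted p of 0.158 without muscle replicate 1, and 0.0585 without MEF replicate 2.

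The Slits, secreted repellents, split in direction. Slit1 (chr19:41600257-41743665, minus strand) had 6.47 and 7.70 CPM in transdifferentiated cells, 15.5 and 7.97 CPM in muscle, and 0.936 and 0.194 CPM in MEF. The 4 higher libraries were well above MEF, and Slit1 rose by 3.66 ± 0.65 in transdifferentiated cells (edgeR adjusted p = 0.0034) and by 4.40 ± 0.65 in muscle (edgeR adjusted p = 0.00097). The size depends on the low MEF values: it was 5.14 or 2.91 in transdifferentiated cells, and 5.87 or 3.64 in muscle, without MEF replicate 1 or 2.

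Slit3 (chr11:35121224-35708507, plus strand) had 58.0 and 106 CPM in transdifferentiated cells, 50.2 and 25.7 CPM in muscle, and 658 and 385 CPM in MEF. It fell 6.37-fold in transdifferentiated cells (-2.67 ± 0.44, edgeR adjusted p = 0.00253) and 13.7-fold in muscle (-3.78 ± 0.47, edgeR adjusted p = 0.000361). Slit2 (chr5:47983138-48307733, plus strand) had 82.4 and 78.7 CPM in transdifferentiated cells, 31.0 and 22.2 CPM in muscle, and 219 and 234 CPM in MEF. The fall of Slit2 was 1.49 on the log2 scale in transdifferentiated cells (-1.49 ± 0.26, edgeR adjusted p = 0.0029) and 8.52-fold in muscle (-3.09 ± 0.27, edgeR adjusted p = 4.81e-05). Slit2 was higher in transdifferentiated cells than in muscle (1.60 ± 0.26, edgeR adjusted p = 0.00533; 0.0837 without muscle replicate 2). Of the Slit receptors, Robo1 had 29.4 and 33.4 CPM in transdifferentiated cells, 50.4 and 35.1 CPM in muscle, and 55.2 and 49.1 CPM in MEF, and was not called. Robo2 had 9.39 and 9.93 CPM in transdifferentiated cells, 4.35 and 4.20 CPM in muscle, and 6.72 and 7.19 CPM in MEF, and its difference from muscle did not pass (1.17, edgeR adjusted p = 0.0522).

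**Figure D3:**
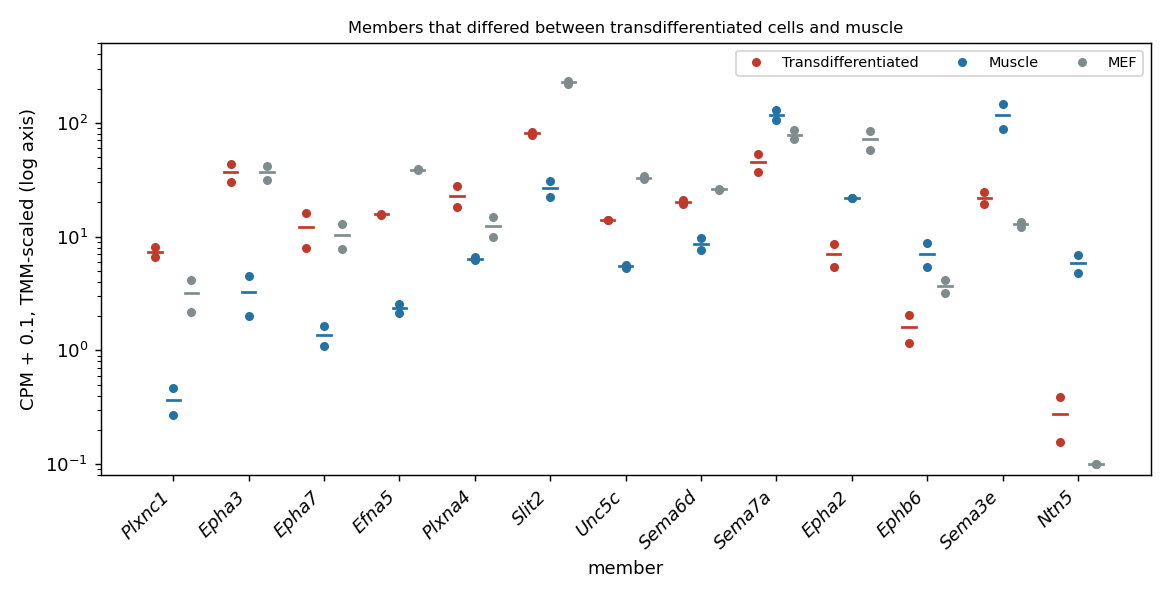
CPM + 0.1 on a log axis in each library for the 13 members called between transdifferentiated cells and muscle, with transdifferentiated cells, muscle and MEF in that order, each point 1 library and each bar the mean. Efna5, Epha3, Epha7, Plxna4, Plxnc1, Sema6d, Slit2 and Unc5c are higher in transdifferentiated cells than in muscle, and Epha2, Ephb6, Ntn5, Sema3e and Sema7a are lower.

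Sema3g, Sema3a and Efnb1 were called over MEF in transdifferentiated cells and not in muscle, but none of the 3 was called between transdifferentiated cells and muscle. Beside the 8 members higher in transdifferentiated cells than in muscle, the fibroblast markers other than Col1a1 summed to 330.4 and 339.0 CPM in transdifferentiated cells, against 210.8 and 221.1 CPM in muscle. Of the 7 fibroblast markers, Thy1, Pdgfra, Ly6a, Dpt and Twist2 were called higher in transdifferentiated cells than in muscle, Pdpn lower, and Col1a1 was not called (5201 and 9019 CPM in transdifferentiated cells, 8228 and 3925 CPM in muscle); their part in these differences was not tested.

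Levels of different genes are compared per kilobase of merged exons (CPM per kb, mean ± SD, n = 2). Merged exons join the exons of all annotated transcripts of a gene, 25433 bases for Slit2 and 6067 for Slit3. A gene whose transcripts in these cells are shorter than that length is therefore placed too low. In transdifferentiated cells the most abundant ligands were Sema3c at 13.6 ± 1.05, Sema7a at 13.6 ± 3.53 and Slit3 at 13.5 ± 5.55 CPM per kb, which do not differ beyond their spread. In muscle Sema7a led at 35.7 ± 4.87 CPM per kb, followed by Sema4d at 16.8 and Sema3b at 16.2, while in MEF Slit3 led at 86.0 ± 31.8, ahead of Sema7a at 23.9 and Efnb2 at 19.2. Plxnb2 had the highest mean of the receptors per length in all 3 groups, at 28.6 ± 11.3 CPM per kb in transdifferentiated cells, 47.7 ± 9.32 in muscle and 47.2 ± 14.1 in MEF. Plxna1 followed in transdifferentiated cells (19.4 ± 9.32) and muscle (20.9 ± 3.77). In MEF, Unc5b (45.9 ± 19.6) and Plxna1 (44.9 ± 18.8) did not differ from Plxnb2 beyond their spread, and both were above it in MEF replicate 1.

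Ligands and receptors that are known to bind were set side by side as 18 pairs. With 1 CPM per kb as the level, both partners reached it in 15 pairs in transdifferentiated cells, 13 in muscle and 15 in MEF. These counts depend on the merged exon length, such as 19135 bases for Unc5c, which was at 0.719 CPM per kb in transdifferentiated cells. For Sema4d and Plxnb1, the ligand was at 8.79 CPM per kb in transdifferentiated cells, 16.8 in muscle and 0.329 in MEF, and the receptor at 3.24 in transdifferentiated cells, 2.97 in muscle and 0.692 in MEF, so neither partner reached that level in MEF. Sema6a and Plxna2 were likewise both higher outside MEF, with the ligand at 10.8 CPM per kb in transdifferentiated cells, 8.62 in muscle and 2.39 in MEF, and the receptor at 6.37 in transdifferentiated cells, 7.22 in muscle and 2.998 in MEF. Sema3f and Nrp2 were both highest in MEF, with the ligand at 3.16 CPM per kb in transdifferentiated cells, 1.66 in muscle and 7.86 in MEF, and the receptor at 3.10 in transdifferentiated cells, 1.63 in muscle and 10.6 in MEF. Efnb2 was at 6.37 CPM per kb in transdifferentiated cells, 4.47 in muscle and 19.2 in MEF, and Ephb4 at 5.63 in transdifferentiated cells, 4.17 in muscle and 10.5 in MEF. Sema7a and Plxnc1 were unequal in every group, with the ligand at 13.6 CPM per kb in transdifferentiated cells, 35.7 in muscle and 23.9 in MEF, and the receptor at 0.872 in transdifferentiated cells, 0.0321 in muscle and 0.37 in MEF.

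**Figure D4:**
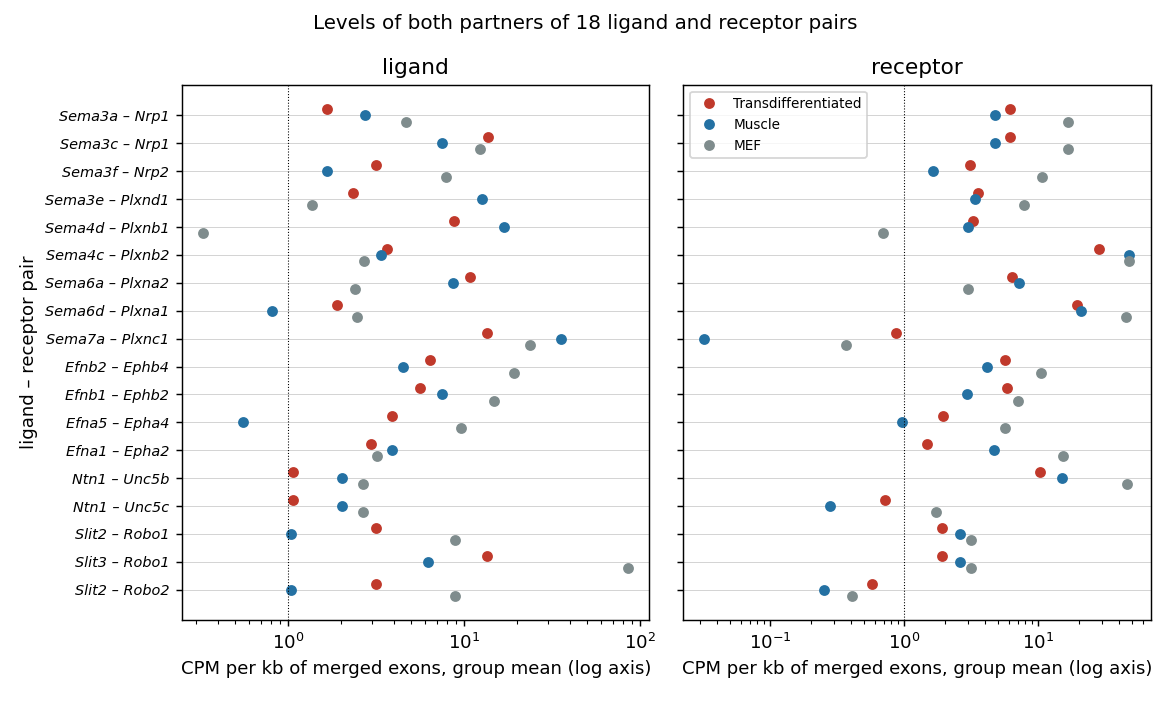
Mean CPM per kb of the ligand and of the receptor in each of 18 known pairs, in transdifferentiated cells, muscle and MEF, on log axes, with the ligand in the left panel, the receptor in the right one and a dotted line at 1 CPM per kb. Sema4d and Plxnb1 are both below the line in MEF alone, and Sema7a with Plxnc1 has the receptor under 1 CPM per kb in all 3 groups.

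A wider list of 60 genes that act with these systems, such as co-receptors, collapsin response mediators and actin regulators, had 56 tested genes. Of these, 13 were higher and 16 lower in transdifferentiated cells over MEF, 9 higher and 21 lower in muscle over MEF, and 12 higher and 4 lower in transdifferentiated cells over muscle. These are 51.8%, 53.6% and 28.6% of the tested list, beside 27.3%, 35.6% and 10.0% of all tested genes in the same comparisons. Single libraries moved these counts: 9 were lower over MEF without replicate 1 of transdifferentiated cells or of MEF, and 13 in muscle over MEF without either muscle replicate. Over muscle, 5 and 4 were higher without muscle replicate 1 and 2, and 1 or 2 were lower without any 1 of the transdifferentiated or muscle replicates. The strongest rises were of the actin-binding LIM proteins, which link guidance receptors to actin. Ablim3 had 226 and 286 CPM in transdifferentiated cells, 525 and 470 CPM in muscle, and 1.32 and 1.07 CPM in MEF (transdifferentiated cells over MEF 7.74 ± 0.34, edgeR adjusted p = 1.57e-06). Chn1, a Rac GTPase-activating protein that acts downstream of EphA4 in mouse, had 62.1 and 66.0 CPM in transdifferentiated cells and 5.07 and 4.57 CPM in MEF (3.73 ± 0.29, edgeR adjusted p = 2.63e-05). Dpysl2, a collapsin response mediator that carries Sema3A signals to microtubules, had 61.8 and 60.9 CPM in transdifferentiated cells, 33.9 and 27.2 CPM in muscle, and 275 and 250 CPM in MEF (-2.10 ± 0.25, edgeR adjusted p = 0.000359). The other collapsin response mediators differed among themselves in transdifferentiated cells over MEF. Dpysl3 and Crmp1 were lower, Dpysl4 was not called, and Dpysl5 was higher (4.10 ± 0.67, edgeR adjusted p = 0.00239). Neo1, the netrin receptor neogenin, had 65.3 and 86.5 CPM in transdifferentiated cells, 104 and 115 CPM in muscle, and 181 and 143 CPM in MEF (-1.09 ± 0.26, edgeR adjusted p = 0.0146). Dcc, the other attractive netrin receptor, was too low to test, at most 0.661 CPM in any library.

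Replicates of a group differed with base composition. Across the 60 tested members, replicate 2 of transdifferentiated cells was above replicate 1 in 47 and below it in 13, replicate 2 of muscle was above in 21 and below in 39, and replicate 2 of MEF was above in 16 and below in 43. The log2 ratio of the replicates followed the GC content of the transcripts, with Pearson's r of 0.76 in transdifferentiated cells, -0.40 in muscle and -0.79 in MEF over 60 genes that share the same libraries, given as a description. With a GC correction added after seeing the data, members called were 16 higher and 24 lower in transdifferentiated cells over MEF and 17 higher and 9 lower in transdifferentiated cells over muscle. Calls over all genes increased too, to 3777 higher and 3272 lower over MEF, and to 2026 higher and 1230 lower over muscle.

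**Figure D5:**
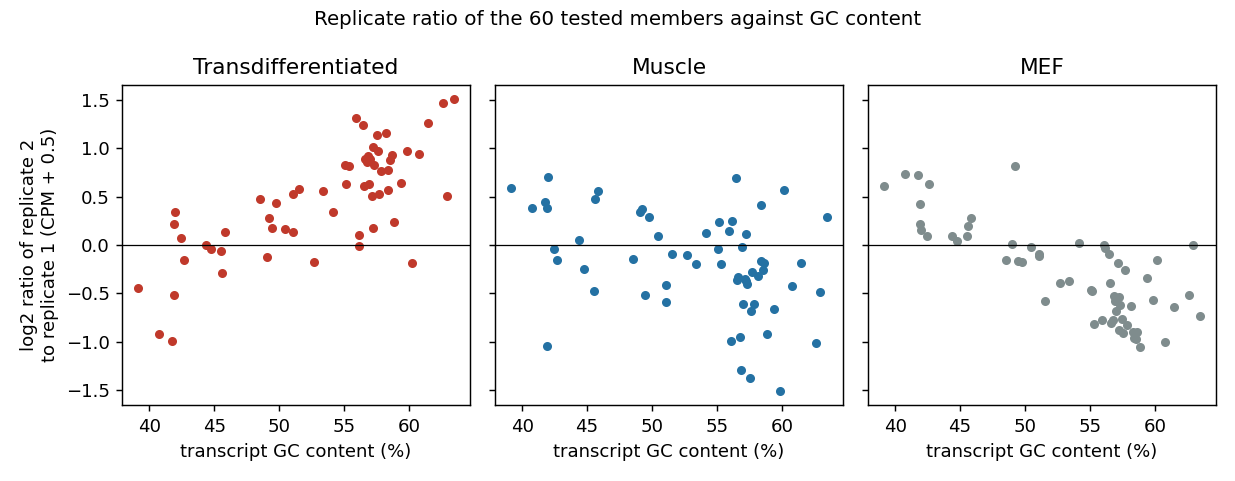
Log2 ratio of replicate 2 to replicate 1 (y axis, CPM with a pseudocount of 0.5) against the GC content of the transcript in percent (x axis) for the 60 tested members, with 1 panel each for transdifferentiated cells, muscle and MEF. The points climb with GC content in transdifferentiated cells (r = 0.76) and decline in muscle (r = -0.40) and MEF (r = -0.79).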

How the data were processed

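The table the authors deposited holds raw whole-number counts by gene symbol for 6 libraries. Per the submitters' processing notes, the build was mm10 and the tools named were HISAT2 2.1.0, Trim Galore 0.6.0, DESeq2 1.26.0 and featureCounts 1.6.2, with no roles. Per the labels' protocols, RNA was isolated on Qiagen RNeasy columns, libraries were made with the Lexogen SENSE kit and read as 75 bp single ends. No label or header gives the strand setting or annotation of the counting. The authors' own comparison table was not used here.

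From the counts, genes were filtered with filterByExpr by group, which kept 17400 of 55286, scaled by TMM and fitted with edgeR 4.0.16 (R 4.3.3, robust quasi-likelihood F-test, group as the only term, all 6 libraries, 3 residual degrees of freedom). The biological coefficient of variation was 27.3%. Adjusted p-values are Benjamini-Hochberg over all tested genes, called under 0.05, and SE is the log2 fold change divided by the square root of F. With 2 libraries a group, an exact permutation test cannot go below p = 0.333. CPM are counts per 1000000 counts of tested genes after TMM scaling. A count of 0 allows 3 counts, 0.128 to 0.183 CPM in a library, for counting error only. Coordinates and exon lengths come from GENCODE M21 (mm10), in which all 68 symbols matched, and start windows from RefSeq for 59 of the 68. Alternatives were DESeq2 size factors, no low-count filter, DESeq2 1.42.0, the compared groups alone, a replicate block, each library left out, and, added after seeing the data, a GC offset from a lowess curve.

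The members and lists were chosen with earlier results of these data known. Members called in any comparison with at least 5 CPM in a group were to be given in full, at most 30 of them by the size of change; 38 qualified, and the other 8, with Sema3g, were added after their values were seen.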

Additional observations from a re-analysis of the deposited data

How the results depend on the processing

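Of 70 called results of members, 70 kept their call under DESeq2 size factors, 69 without the low-count filter, 69 under DESeq2, 68 with the compared groups alone, 65 with the replicate block and 70 with the GC correction (added after seeing the data), and 55 to 65 when a library was left out; none changed direction. Among uncalled values, Epha3 over MEF in transdifferentiated cells turned to -0.03 under DESeq2 size factors and under DESeq2, -0.05 with the block, -0.17 with the GC correction, -0.27 without transdifferentiated replicate 1 and -0.19 without MEF replicate 1 (highest 0.23 without MEF replicate 2). Epha7 in the same comparison turned to -0.39 and -0.12 without these 2 libraries (highest 0.64), and Sema6c over muscle to -0.74 without transdifferentiated replicate 2 (highest 0.55), -0.05 without muscle replicate 2 and -0.08 with the GC correction; the cause was not tested. The GC correction gave 3272 lower genes in transdifferentiated cells over MEF (1973 as reported), and 2026 higher and 1230 lower over muscle (1319 and 428). It called 16 members higher and 24 lower over MEF and 17 and 9 over muscle, and 20 wider-list genes higher in transdifferentiated cells and 15 in muscle, both over MEF. Without the filter, 670 genes were lower in transdifferentiated cells than in muscle. The replicate numbers are not stated to pair samples, and deviations of same-numbered libraries correlated at -0.529 between transdifferentiated cells and MEF, 0.314 between muscle and MEF, and -0.291 between transdifferentiated cells and muscle. With the replicate block, Sema3g, Efnb1 and Sema3f over MEF (adjusted p = 0.0835, 0.0611 and 0.0769, edgeR) and Sema6d and Unc5c over muscle (0.0761 and 0.0517) were not called in transdifferentiated cells, which had 9 members higher and 12 lower over MEF, and 6 and 5 over muscle, muscle had 13 and 20 over MEF, and the block gave 10 lower wider-list genes over MEF, and 265 lower genes and 1 lower wider-list gene over muscle. Leaving out each library, with the lone sample assumed to vary like the other groups, gave these ranges of calls, higher then lower. Transdifferentiated cells over MEF had 2258 to 2394 and 1280 to 1926 genes, 8 to 12 and 11 to 18 members, and 10 to 15 and 9 to 17 of the wider list. Muscle over MEF had 1980 to 3223 and 1778 to 3445 genes, 11 to 13 and 16 to 25 members, and 6 to 10 and 13 to 21 of the wider list. Transdifferentiated cells over muscle had 589 to 1616 and 140 to 605 genes, 4 to 8 and 2 to 6 members, and 4 to 13 and 1 to 4 of the wider list. Counts of a few reads limit Sema3g, Ephb1, Slit1 and Ntn5.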
